A study of Homo sapiens with 18 samples.

Results

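The nuclear genes for the subunits of respiratory complexes II, III and IV and of ATP synthase, also called complex V, were examined in HUDEP1 cells that make either the short form of the transcription factor GATA1 or the full-length protein. Members were chosen by gene symbol: SDHA to SDHD, every symbol beginning with UQCR, CYC1, the numbered COX genes of the subunit series, and every symbol beginning with ATP5. This rule matched 44 of the 13358 listed genes, and 43 of them reached 1 or more in 3 or more of the 18 libraries, as did 11110 genes of the whole table. The 43 comprise 4 genes of complex II, 10 of complex III, 11 of complex IV and 18 of complex V. The gene that did not pass was COX6B2, the testis isoform of subunit 6B, which was listed at 0 in every expansion library and between 0.03 and 0.30 at day 4. The muscle, lung or testis isoforms COX4I2, COX6A2, COX7A1, COX7B2 and COX8C were not among the 13358 listed genes under these symbols, so they were not analysed.

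Complexes II to IV pass electrons from succinate and ubiquinol to oxygen in the inner mitochondrial membrane, and complexes III and IV pump protons that ATP synthase then uses to make ATP. Complex II is encoded wholly in the nucleus, while complexes III, IV and V each need mitochondrially encoded partners as well. Erythroid precursors depend on working mitochondria for heme synthesis, and they remove their mitochondria at the end of maturation.

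HUDEP1 is an immortalised human erythroid progenitor line. Clones 1KI9 and 1D5 carry GATA1s, the isoform without the N-terminal part, and clone FL carries GATA1FL, the full-length form. At day 4 the cells were in a differentiation medium, which per the labels was IMDM with 2% FBS, 3% human AB serum, 10 µg/mL insulin, 3 U/mL heparin and 1 mg/mL holo-transferrin. Expansion libraries came from cells in SFEM II with 1 µM dexamethasone. Erythropoietin at 3 U/mL, doxycycline at 1 µg/mL and stem cell factor at 50 ng/mL were in both media. Each clone had 3 libraries in each condition. With 1 FL clone, genotype and clone cannot be told apart, and the labels do not say whether replicates were separate cultures, so p-values measure only the spread between libraries, which may be technical. Per its title the series asks how the N-terminal part of GATA1 bears on metabolism, and GATA1s is compared with FL here at the level of transcripts.

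Expansion values are TPM, a share of all transcripts after division by transcript length, and sum to 943734 to 950736 per library. Day-4 values sum to 814583 to 1081250, so they are TPM to which a further scaling had been applied, called scaled TPM below. Neither unit keeps read depth, so the depth behind each value is unknown. Globin transcripts made up 12.4% to 13.3% of the total in 1KI9 and 19.3% to 20.6% in 1D5, against 38.2% to 39.4% in FL at day 4. Mitochondrially encoded transcripts made up 18.4% to 19.4% and 16.2% to 17.1%, against 8.58% to 9.32%. All 11 erythroid markers were at 1 or more on average in every group, and their summed level at day 4 was 70428 to 79894 in 1KI9 and 124711 to 142664 in 1D5, against 265476 to 282235 in FL. Of 8 monocyte and neutrophil markers 6 were listed, with a summed day-4 level of 396 to 418 in 1KI9 and 329 to 351 in 1D5, against 43.5 to 47.1 in FL, most of it CD68, while CSF1R and ELANE averaged under 1 in each group and TYROBP was listed at 0 in FL. Megakaryocyte markers summed to 16.2 to 17.7 and 19.9 to 23.3, against 4.01 to 4.46, and mast cell and eosinophil markers to 302 to 324 and 175 to 186, against 351 to 369. That last sum joins genes that went opposite ways. PRG2 averaged 30.25 in 1KI9 and 16.6 in 1D5, against 309 in FL. TPSB2 averaged 268 and 147, against 40.6, and TPSAB1 and FCER1A were also higher in both clones than in FL. In expansion the monocyte and neutrophil sums were 186 to 233 in 1KI9 and 41.3 to 53.6 in 1D5, against 8.20 to 38.8 in FL, the megakaryocyte sums 8.4 to 11.45 and 1.54 to 3.05, against 0.31 to 0.56, and the mast cell and eosinophil sums 125 to 157 and 79.7 to 101, against 539 to 877. Of the listed mast cell and eosinophil genes only PRG2 was lower in both clones in expansion, at 62.1 and 81.5, against 674. TPSB2 averaged 69.0 and 5.77, against 2.71. The erythroid sums there were 30994 to 34395 and 35093 to 53129, against 42845.5 to 81599, and the globin share was 4.02% to 4.54% and 4.48% to 6.83%, against 5.55% to 10.6%. The listed lymphocyte, stromal and muscle markers each summed to at most 5.35 in every day-4 library, and in expansion the largest such sum was that of the muscle markers, 15.55 to 19.96 in 1KI9 and 4.35 to 9.06 in 1D5, against 0.43 to 0.55 in FL. GATA1 itself, whose gene-level value does not separate the 2 forms, averaged 925 ± 21.1 in 1KI9 and 1059 ± 37.5 in 1D5, against 231 ± 8.75 in FL at day 4, and 635 ± 24.7 and 651 ± 25.7, against 154 ± 12.6, in expansion (SD, n = 3 each). The part of these shares and markers in the differences between clones was not tested. In bulk RNA, a different mix of cells and a different amount of RNA per cell cannot be told apart.

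At day 4 the shares of members that rose and fell in the GATA1s clones were near those over all genes, and which members differed, and by how much, is described here. As deposited, complexes III and V held members called in each direction, and complexes II and IV only members called higher. That pattern did not hold under the other scalings given below. SDHA of complex II and COX6A1, COX6B1, COX6C and COX7B of complex IV were each called lower under 1 of them. The core protein UQCRC1 of complex III, the ATP synthase c subunit genes ATP5MC1 and ATP5MC2, COX4I1 of complex IV and the complex II anchor SDHC rose by 0.58 to 0.67 on the log2 scale and stayed called under each of 4 scalings of the libraries. The small complex III genes UQCRH, UQCRHL, UQCRB, UQCR10 and UQCR11, the ATP synthase inhibitor ATP5IF1 and the subunit ATP5F1E fell by 0.22 to 0.44 as deposited, but with libraries brought to equal totals none of these 7 was called in both clones and their differences lay between -0.20 and 0.07. Differences are given as the mean of 1KI9 and 1D5 minus FL unless 1 clone is named, on the log2(value + 1) scale, which understates the change of low genes. A member was called in both clones when 1KI9 and 1D5 each differed from FL in the same direction at a Benjamini-Hochberg adjusted p under 0.05 in limma, fitted to all genes that passed the filter. By that rule 27 of the 43 members were called at day 4, 20 higher and 7 lower, where 51.2% of the 11083 genes tested were called higher and 14.3% lower, so the counts themselves are near the background.

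The direction of most members depended on how the libraries were scaled to each other. With median-of-ratios scaling 5 members were called higher and 20 lower, with equal totals 33 and 0, and with equal totals over genes other than globins and mitochondrially encoded genes 19 and 9. Shares called over all genes are given for the deposited scale only. Counts under the other scalings, here and below, therefore have no background beside them. At an unadjusted p under 0.05, limma also called 0 members lower with equal totals. Over all genes tested, the median log2 difference moved with the scaling, from 0.29 as deposited to 0.0030, 0.55 and 0.27 under those 3 scalings. Against that, the members' median was 0.18 as deposited, and 16 members lay above the median gene and 27 below it. No member was called lower under all 4 scalings, and 10 members were called in opposite directions by different scalings. Each scaling multiplies a library by 1 factor, so the order of the members could hardly move, as the plot of the day-4 differences shows. Several of the large differences are therefore also given below relative to the median gene. Among the others, that value was 0.32 for ATP5MC2, 0.21 for ATP5F1C, 0.19 for COX5A, 0.17 for ATP5MD and 0.13 for UQCRQ. For UQCR10 it was -0.65. On the deposited scale all 6 GATA1s libraries lay above all 3 FL libraries for 24 members and below them for 7, which are the 7 called lower with COX7A2L in place of ATP5F1E. This separation was not counted over all genes, so the 24 and 7 have no background beside them. By the limma call, 51.2% of all genes tested were higher and 14.3% lower.

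**Figure D1:**
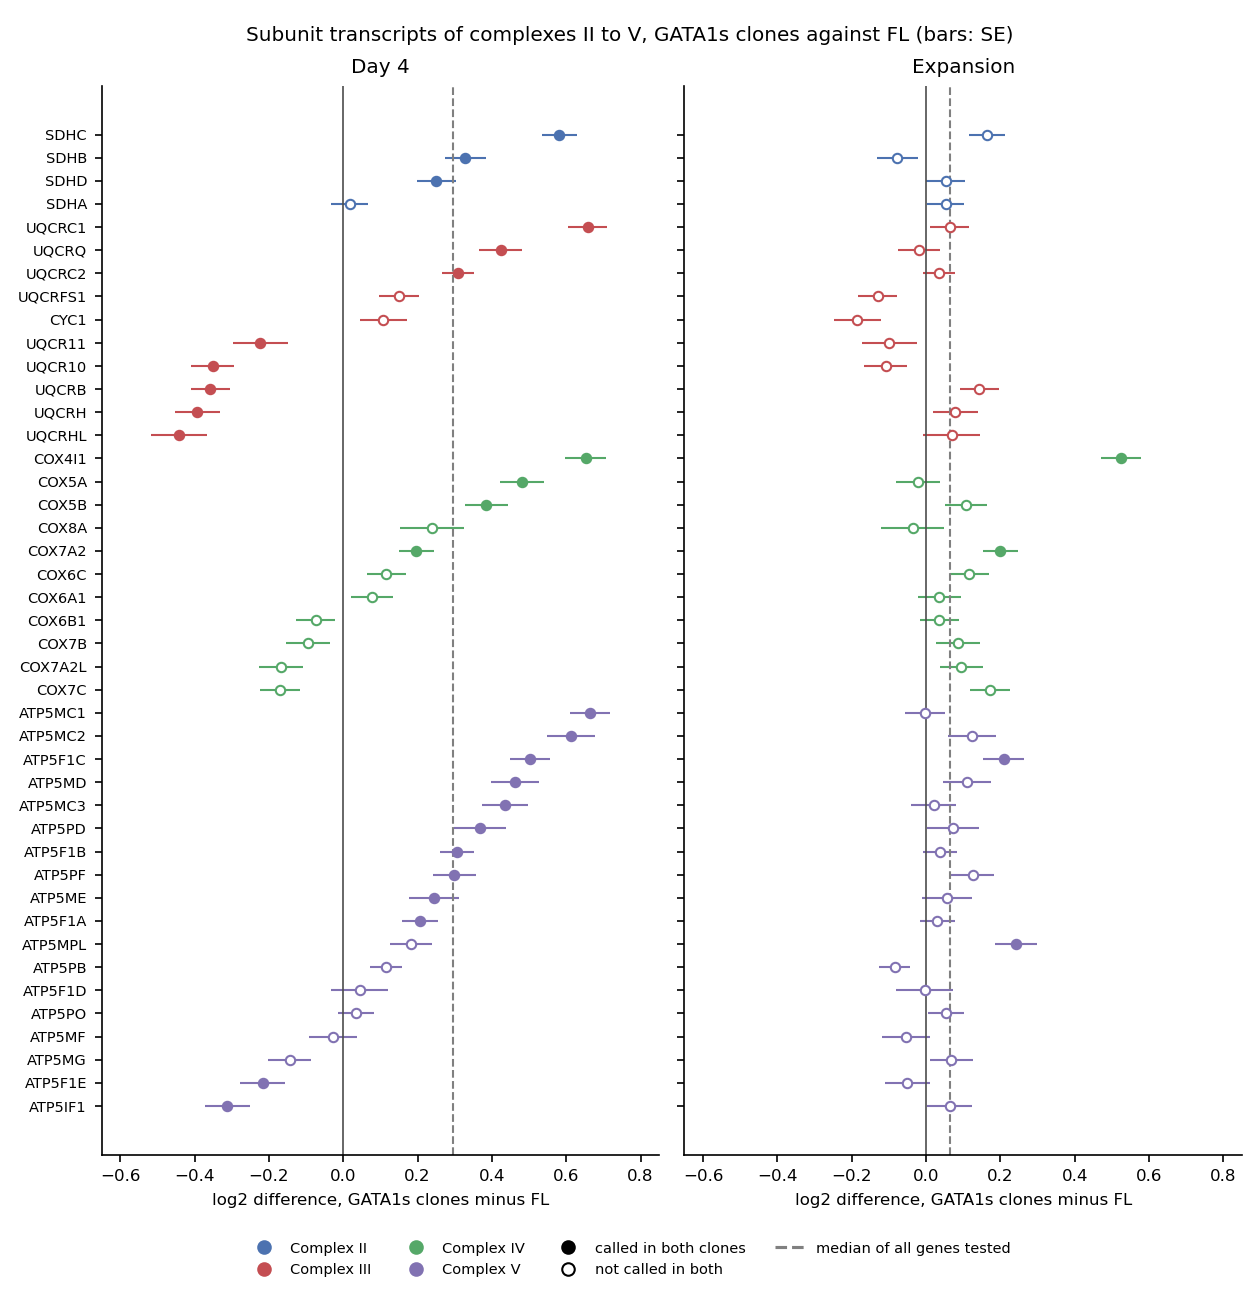
Log2 differences of the mean of 1KI9 and 1D5 minus FL (horizontal axis, with SE) for the 43 transcripts (vertical axis, grouped by complex), at day 4 on the left and in expansion on the right. Filled points were called in both clones, 27 at day 4 and 4 in expansion, and the dashed line is the median of all genes tested, 0.29 at day 4 and 0.064 in expansion.

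In complex II, the succinate dehydrogenase that also belongs to the tricarboxylic acid cycle, SDHB, SDHC and SDHD rose at day 4 in both clones as deposited and SDHA, the flavoprotein that binds succinate, was not called. SDHC, a membrane anchor (ENSG00000143252, chr1:161314257-161375340, hg38), stood at 125, 126 and 116 in 1KI9 and 103, 111 and 106 in 1D5, against 72.6, 78.9 and 76.3 in FL (scaled TPM). Every GATA1s library was above every FL library, and 1KI9 was above 1D5. The difference was 0.58 ± 0.048 (SE, adjusted p = 3.82e-09), 0.29 above the median gene. SDHA stood at 103, 106 and 107 in 1KI9 and 93.5, 94.3 and 88.3 in 1D5, against 98.0, 96.8 and 97.0 in FL, with 1D5 below FL and 1KI9 above it, and a difference of 0.017 ± 0.050 (adjusted p = 0.758). SDHB, the iron-sulfur subunit, stood at 60.6, 62.1 and 62.1 in 1KI9 and 60.2, 65.9 and 58.1 in 1D5, against 48.3, 49.1 and 48.8 in FL. SDHD, the second anchor, stood at 77.3, 78.4 and 70.8 in 1KI9 and 69.6, 71.2 and 69.9 in 1D5, against 61.2, 58.3 and 63.6 in FL. Both were higher in each GATA1s library than in any FL library, by 0.33 ± 0.055 and 0.25 ± 0.052 (adjusted p = 3.03e-05 and 0.000284), near the median gene, and with median-of-ratios scaling they came to -0.0032 and -0.083. Within a library, scaling cancels. At day 4 the ratio of SDHC to SDHA was 1.21, 1.19 and 1.08 in 1KI9 and 1.10, 1.17 and 1.20 in 1D5. It was 0.741, 0.815 and 0.787 in FL. The anchor value therefore exceeded the flavoprotein value in every GATA1s library and in no FL library at day 4. In expansion this ratio was 1.21, 1.07 and 1.08 in 1KI9, against 0.913, 0.871 and 0.997 in FL. It was 0.919, 0.880 and 0.888 in 1D5, within the FL range. The exons of SDHC and SDHD overlap genes on the opposite strand, CFAP126 and TIMM8B, and the sources used here do not say whether the counting used strand. SDHA has pseudogene copies, between which reads can be divided.

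In expansion the complex II transcripts were not called in both clones. SDHC stood at 181, 182 and 179.9 in 1KI9 and 137, 139 and 130.2 in 1D5, against 129.6, 141 and 148 in FL (TPM), high in 1KI9 only, with 1D5 overlapping FL: the difference from FL was 0.37 ± 0.055 for 1KI9 (adjusted p = 1.43e-05) and -0.044 ± 0.055 for 1D5 (adjusted p = 0.581). SDHA stood at 149.6, 169.9 and 166 in 1KI9 and 149, 157 and 147 in 1D5, against 142, 162 and 148 in FL. SDHB stood at 138, 148 and 149.9 in 1KI9 and 162, 161 and 154 in 1D5, against 143, 167 and 172 in FL. SDHD stood at 127, 142 and 140.4 in 1KI9 and 136, 136 and 127 in 1D5, against 121, 131 and 137 in FL. GATA1s libraries overlapped FL libraries in all 3 genes, and in SDHB each 1KI9 library was below each 1D5 library.

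Complex III, the cytochrome bc1 complex that passes electrons from ubiquinol to cytochrome c, held the widest spread at day 4. Over all genes tested 51.2% were called higher and 14.3% lower as deposited. On that scale, 3 of the 10 complex III members were called higher (UQCRC1, UQCRC2, UQCRQ) and 5 lower. UQCRC1, the highest of them, and UQCRH, the lowest but for its near-copy UQCRHL, are shown by their promoters, 300 bases from RefSeq (GRCh38.p14), 250 before the annotated start and 50 after it. UQCRC1, on the minus strand, covers chr3:48609597-48609896, and UQCRH, on the plus strand, covers chr1:46303448-46303747. Capitals mark the NRF1 core TGCGCA, the ETS core CCGGAA and the GATA site AGATAA, each searched on both strands, and no match overlaps another in the windows shown. NRF1 and the ETS factor GABP are textbook regulators of nuclear respiratory genes.
UQCRC1: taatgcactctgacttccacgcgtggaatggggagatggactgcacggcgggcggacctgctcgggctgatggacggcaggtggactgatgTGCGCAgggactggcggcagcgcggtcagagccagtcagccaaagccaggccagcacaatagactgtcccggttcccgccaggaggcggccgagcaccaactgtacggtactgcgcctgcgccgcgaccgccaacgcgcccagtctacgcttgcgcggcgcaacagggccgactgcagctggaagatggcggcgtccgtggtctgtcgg
UQCRH: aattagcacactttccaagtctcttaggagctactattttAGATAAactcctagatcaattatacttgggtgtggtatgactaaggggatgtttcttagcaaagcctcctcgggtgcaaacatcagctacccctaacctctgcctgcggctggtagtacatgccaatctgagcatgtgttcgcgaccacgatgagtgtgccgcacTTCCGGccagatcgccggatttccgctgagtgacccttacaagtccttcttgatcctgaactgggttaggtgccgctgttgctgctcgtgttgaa
The UQCRC1 window holds 1 NRF1 core, and the UQCRH window holds 1 ETS core and 1 GATA site. A match is a description of the letters only.

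UQCRC1, a core protein of the matrix side (ENSG00000010256, chr3:48599002-48610976, hg38), stood at 135, 141 and 139 in 1KI9 and 141, 149.8 and 145 in 1D5, against 92.5, 91.0 and 85.2 in FL at day 4. The GATA1s libraries were all above the FL libraries, by 0.66 ± 0.052 (SE, adjusted p = 2.55e-09), which is 0.36 above the median gene. UQCRH, the acidic hinge protein that sits by cytochrome c1 (ENSG00000173660, chr1:46303631-46316776, hg38), stood at 340.1, 353 and 326 in 1KI9 and 278, 342 and 293 in 1D5, against 424, 416 and 424 in FL. It was lower in every GATA1s library than in every FL library as deposited, with a difference of -0.39 ± 0.061 (adjusted p = 1.21e-05), and of -0.10 with equal totals (adjusted p = 0.0756). Relative to the median gene it was -0.69. UQCRB, the ubiquinone-binding small subunit, stood at 377, 394 and 378 in 1KI9 and 345, 405 and 351 in 1D5, against 476, 463 and 503 in FL, again with no overlap, a difference of -0.36 ± 0.053 (adjusted p = 7.07e-06) and -0.65 relative to the median gene; with equal totals it was -0.065. UQCRHL, a hinge-like gene without introns, stood at 4.17, 4.91 and 4.43 in 1KI9 and 3.72, 4.66 and 3.59 in 1D5, against 6.36, 5.77 and 6.18 in FL. Its difference was -0.44 ± 0.076 (adjusted p = 3.93e-05), -0.74 relative to the median gene. The UQCRHL transcript aligned with that of UQCRH over 516 columns at 97.9% identity, so reads can be divided between them and neither value is certain. UQCR10 and UQCR11, small subunits of the membrane part, differed by -0.35 ± 0.057 (adjusted p = 2.05e-05) and -0.22 ± 0.074 (adjusted p = 0.011).

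The nuclear-encoded catalytic subunits of complex III were not called in both clones. CYC1, the cytochrome c1 that hands electrons to cytochrome c, stood at 145, 137 and 120.3 in 1KI9 and 145, 154 and 140.2 in 1D5, against 130.3, 135 and 124 in FL at day 4, with overlap between 1KI9 and FL and a difference of 0.11 ± 0.063 (adjusted p = 0.127). UQCRFS1, the Rieske iron-sulfur protein, stood at 30.2, 29.6 and 28.1 in 1KI9 and 27.3, 29.3 and 27.4 in 1D5, against 25.1, 25.5 and 26.5 in FL, higher in each GATA1s library but called only in 1KI9 (0.18 ± 0.062, adjusted p = 0.0129; 1D5 0.12 ± 0.062, adjusted p = 0.0948). With median-of-ratios scaling its mean difference was -0.18. UQCRQ, a small subunit, stood at 163, 171 and 159 in 1KI9 and 149.6, 164 and 145 in 1D5, against 122, 114 and 117 in FL, without overlap, a difference of 0.42 ± 0.057 (adjusted p = 2.32e-06). UQCRC2, the second core protein, differed by 0.31 ± 0.043 (adjusted p = 3.79e-06), close to the median gene, and by -0.027 with median-of-ratios scaling.

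In expansion no complex III transcript was called in both clones. UQCRC1 stood at 235, 244 and 264 in 1KI9 and 229, 248 and 230.0 in 1D5, against 212, 248 and 233 in FL (TPM). UQCRH stood at 814, 836 and 832 in 1KI9 and 890.4, 977 and 853 in 1D5, against 770.1, 818 and 873 in FL. UQCRHL stood at 13.8, 14.8 and 13.2 in 1KI9 and 14.6, 16.0 and 14.1 in 1D5, against 13.7, 12.9 and 14.6 in FL. The groups overlapped for all 3 genes. UQCRB stood at 736, 690.1 and 657 in 1KI9 and 649, 695 and 659 in 1D5, against 604, 626 and 619 in FL, with each GATA1s library above FL and a difference of 0.14 ± 0.053 that was not called in both clones. CYC1 stood at 236, 279 and 278 in 1KI9 and 301, 309 and 279 in 1D5, against 322, 316 and 316 in FL, lower in each GATA1s library than in FL, with -0.27 ± 0.073 for 1KI9 (adjusted p = 0.00404) and -0.10 ± 0.073 for 1D5 (adjusted p = 0.313). UQCRFS1 stood at 51.9, 58.1 and 59.96 in 1KI9 and 58.8, 59.2 and 56.6 in 1D5, against 60.2, 61.3 and 67.3 in FL, again with each GATA1s library below each FL library (-0.13 ± 0.054, adjusted p = 0.0494). UQCRQ stood at 253, 292 and 279 in 1KI9 and 329, 333 and 297 in 1D5, against 304, 283 and 313 in FL, with overlap and 1KI9 below 1D5.

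The ratio of UQCRH to UQCRC1 within a library, which no scaling can alter, was 2.51, 2.51 and 2.34 in 1KI9 and 1.98, 2.29 and 2.01 in 1D5, against 4.59, 4.57 and 4.98 in FL at day 4. In expansion the ratio was 3.46, 3.43 and 3.15 in 1KI9 and 3.89, 3.94 and 3.71 in 1D5, against 3.63, 3.30 and 3.75 in FL. The ratio of hinge to core values at day 4 was therefore about 4.7 in the FL libraries and 2.0 to 2.5 in the GATA1s libraries. The 3 clones lay together at 3.2 to 3.9 in expansion. UQCRB to UQCRC1 gave the same picture, 2.79, 2.80 and 2.72 in 1KI9 and 2.46, 2.705 and 2.42 in 1D5, against 5.14, 5.09 and 5.91 in FL at day 4. In expansion that ratio averaged 2.82 ± 0.322 in 1KI9 and 2.84 ± 0.0293 in 1D5, against 2.67 ± 0.160 in FL (SD, n = 3 each). The ratios within a library, above, here and below, were chosen after the values were seen and carry no test.

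**Figure D2:**
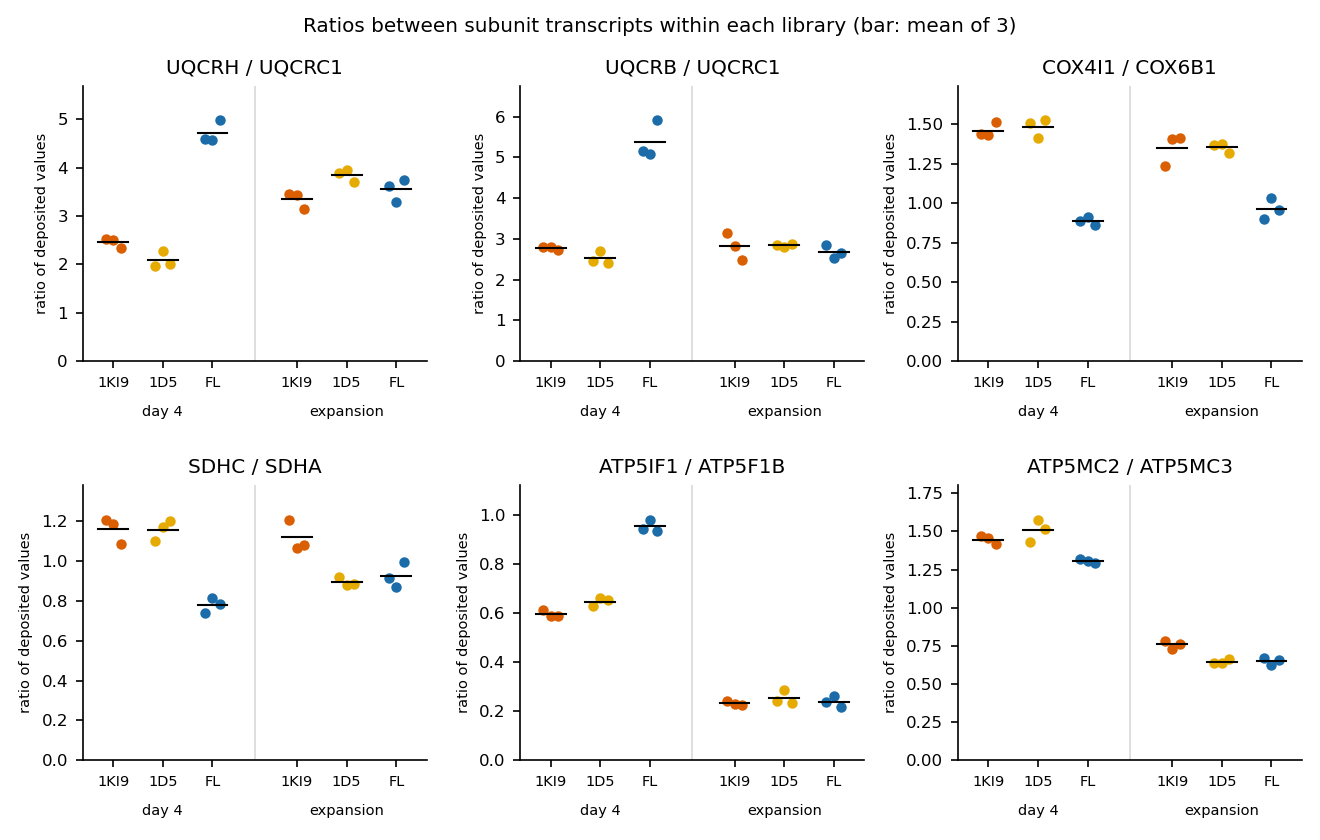
Ratios of deposited values of 2 transcripts within each library (vertical axis, from 0) for 1KI9, 1D5 and FL at day 4 and in expansion (points: libraries; bars: means of 3). At day 4 the UQCRH to UQCRC1 ratio was 2.0 to 2.5 in the GATA1s libraries and 4.6 to 5.0 in the FL libraries.

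In complex IV, cytochrome c oxidase, 4 of 11 members rose at day 4 in both clones as deposited (COX4I1, COX5A, COX5B, COX7A2). None fell (0), also at an unadjusted p under 0.05. Over all genes tested 51.2% were called higher and 14.3% lower on that scale. COX4I1 encodes the common isoform of subunit 4, the largest nuclear subunit and the one that binds ATP. Its promoter is shown because its neighbour EMC8 starts 151 bases away on the opposite strand and was called higher as well. The window covers chr16:85799445-85799744 on the plus strand (GRCh38.p14), the start of EMC8 lies within it, and it holds 3 ETS cores, in capitals.
COX4I1: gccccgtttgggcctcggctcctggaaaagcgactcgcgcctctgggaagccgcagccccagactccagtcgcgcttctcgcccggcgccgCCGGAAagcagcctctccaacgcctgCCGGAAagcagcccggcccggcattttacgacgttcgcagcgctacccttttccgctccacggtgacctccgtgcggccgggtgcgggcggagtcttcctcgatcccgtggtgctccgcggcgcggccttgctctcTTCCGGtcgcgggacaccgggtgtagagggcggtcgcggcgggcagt

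COX4I1 (ENSG00000131143, chr16:85798633-85807044, hg38) stood at 550.0, 556 and 514 in 1KI9 and 513, 554 and 502 in 1D5, against 340.0, 349 and 324 in FL at day 4. In expansion it stood at 802, 888 and 917 in 1KI9 and 840.2, 866 and 794 in 1D5, against 555, 625 and 593 in FL. In both conditions every GATA1s library was above every FL library, and the 2 clones overlapped each other. The difference was 0.65 ± 0.054 at day 4 (SE, adjusted p = 4.42e-09) and 0.53 ± 0.054 in expansion (adjusted p = 2.39e-07), 0.36 and 0.46 above the median gene. The call held in both conditions under all 4 scalings, and the change of the difference between conditions was 0.13 ± 0.077 (adjusted p = 0.156). EMC8, whose product helps insert membrane proteins at the endoplasmic reticulum and which is named here after its values were seen, averaged 23.1 ± 0.376 in 1KI9 and 22.6 ± 1.70 in 1D5, against 12.3 ± 0.864 in FL at day 4 (SD, n = 3 each). In expansion EMC8 averaged 43.4 ± 4.05 and 49.6 ± 1.76, against 36.3 ± 5.27. Its differences were 0.84 ± 0.080 and 0.35 ± 0.080 (adjusted p = 2.63e-08 and 0.00117), called in both clones in both conditions. Exons of the 2 genes overlap on opposite strands, so without the strand setting of the counting their reads cannot be told apart there.

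COX5A, a subunit on the matrix side, stood at 209.6, 215 and 199.9 in 1KI9 and 194, 221 and 192 in 1D5, against 144, 144 and 151 in FL at day 4. The GATA1s libraries were all above FL, by 0.48 ± 0.058 (adjusted p = 6.71e-07). COX5A in expansion was at 285, 335 and 307 in 1KI9 and 336, 342 and 305 in 1D5, against 307, 322 and 338 in FL, where the groups overlapped (-0.022 ± 0.058, adjusted p = 0.774). COX5B, a zinc-binding subunit, differed by 0.39 ± 0.057 at day 4 (adjusted p = 7.60e-06) and 0.11 ± 0.057 in expansion. COX7A2, the common isoform of subunit 7A, stood at 281, 291 and 268 in 1KI9 and 280.1, 314 and 280.4 in 1D5, against 254, 236 and 257 in FL at day 4. In expansion it stood at 403, 414 and 398 in 1KI9 and 407, 400.4 and 413 in 1D5, against 347, 344 and 369 in FL, with all GATA1s libraries above all FL libraries in both conditions. The differences were 0.20 ± 0.047 (adjusted p = 0.000924) and 0.20 ± 0.047 (adjusted p = 0.0016), and with median-of-ratios scaling they were -0.14 and 0.12.

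The other complex IV members were not called in both clones at day 4 as deposited. COX6A1, the common isoform of subunit 6A, stood at 249, 249.9 and 226 in 1KI9 and 231, 259.6 and 231 in 1D5, against 232, 228 and 225 in FL at day 4. COX6B1, which clamps the dimer at the cytochrome c side, stood at 382, 389 and 340.0 in 1KI9 and 340.1, 392 and 329 in 1D5, against 382, 381 and 376 in FL. Both overlapped between the groups, with differences of 0.077 ± 0.058 and -0.073 ± 0.052. COX8A stood at 268, 273 and 244 in 1KI9 and 242, 289 and 232 in 1D5, against 224, 218 and 212 in FL, higher in each GATA1s library but called only in 1KI9 (adjusted p = 0.0226; 1D5 0.0579). COX7C stood at 443, 472 and 434 in 1KI9 and 479, 559.8 and 492 in 1D5, against 548, 530.1 and 535 in FL, lowest in 1KI9, which was called (-0.26 ± 0.062, adjusted p = 0.00102), while 1D5 overlapped FL (-0.079 ± 0.062, adjusted p = 0.262). With equal totals the mean difference of COX7C was 0.12. COX7A2L, which helps join complexes III and IV into supercomplexes, stood at 86.8, 89.2 and 88.8 in 1KI9 and 78.1, 89.1 and 81.0 in 1D5, against 92.4, 93.7 and 102 in FL, each GATA1s library below each FL library, called in 1D5 only (adjusted p = 0.00872; 1KI9 0.113). COX6C and COX7B differed by 0.12 ± 0.053 and -0.094 ± 0.059.

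In expansion none of these genes was called in both clones, and COX7C and COX7A2L were called higher in 1KI9 only. COX6A1 stood at 399.7, 450.2 and 432 in 1KI9 and 460.1, 483 and 409 in 1D5, against 416, 434 and 433 in FL (TPM). COX6B1 stood at 648, 633 and 650.5 in 1KI9 and 615, 629 and 602 in 1D5, against 618, 605 and 619.9 in FL, and COX8A at 284, 349 and 338 in 1KI9 and 328, 342 and 258 in 1D5, against 330.3, 324 and 313 in FL. In all 3 genes GATA1s libraries overlapped FL libraries, although in COX6B1 each 1KI9 library was above them. COX7C stood at 693, 703 and 661 in 1KI9 and 679, 686 and 642 in 1D5, against 615, 558 and 632 in FL, with each GATA1s library above each FL library, called in 1KI9 (adjusted p = 0.0139) and not in 1D5 (adjusted p = 0.0678). COX7A2L stood at 156, 148 and 167 in 1KI9 and 135, 133 and 155 in 1D5, against 138, 134 and 146 in FL, above FL in each 1KI9 library and overlapping it in 1D5. The ratio of COX4I1 to COX6B1 within a library was 1.44, 1.43 and 1.51 in 1KI9 and 1.51, 1.41 and 1.52 in 1D5, against 0.889, 0.914 and 0.862 in FL at day 4. In expansion this ratio was 1.24, 1.40 and 1.41 in 1KI9 and 1.37, 1.38 and 1.32 in 1D5, against 0.898, 1.03 and 0.957 in FL, so that no GATA1s library overlapped an FL library in either condition.

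Complex V, ATP synthase, held the largest rise at day 4, in a gene for the c subunit that forms the proton-driven ring. Of its 18 members 10 rose and 2 fell in both clones as deposited. Over all genes tested 51.2% were called higher and 14.3% lower, so this count is near the background. The 3 loci ATP5MC1, ATP5MC2 and ATP5MC3 encode the same mature c subunit and differ in the targeting peptide. ATP5MC1 (ENSG00000159199, chr17:48892765-48895871, hg38) stood at 228, 222 and 208 in 1KI9 and 181, 204 and 181 in 1D5, against 130.5, 129 and 124 in FL at day 4. Every GATA1s library was above FL, and 1KI9 was above 1D5. The difference was 0.66 ± 0.054 (SE, adjusted p = 3.38e-09), 0.37 above the median gene. In expansion ATP5MC1 stood at 427, 440.2 and 428 in 1KI9 and 439.6, 459 and 458 in 1D5, against 409, 488 and 436 in FL, where the groups overlapped (-0.0036 ± 0.054, adjusted p = 0.961). None of the 3 motifs was found in its promoter window.

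ATP5MC2 stood at 304, 315 and 278 in 1KI9 and 275, 334 and 284 in 1D5, against 198, 192 and 194 in FL at day 4, with no overlap and a difference of 0.61 ± 0.064 (adjusted p = 1.06e-07). Its expansion values were 338, 373 and 375 in 1KI9 and 342, 339.9 and 315 in 1D5, against 312, 297 and 347 in FL, with overlap. ATP5MC3 differed by 0.44 ± 0.061 at day 4 (adjusted p = 3.84e-06) and 0.020 ± 0.061 in expansion. Together they summed to 725 ± 37.7 in 1KI9 and 684 ± 56.4 in 1D5, against 471 ± 6.02 in FL at day 4, and in expansion to 1272 ± 66.6 and 1299.8 ± 43.04, against 1252 ± 64.1 TPM (SD, n = 3 each). ATP5MC2 made up 41.2% of it in 1KI9 and 43.5% in 1D5, against 41.3% in FL at day 4, and in expansion 28.5% and 25.6%, against 25.5%. ATP5MC3 made up 28.5% and 28.9%, against 31.6%, at day 4 and 37.6% and 39.6%, against 39.1%, in expansion. In each clone ATP5MC2 was the most abundant of the 3 at day 4 and the least abundant in expansion.

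In the catalytic F1 head ATP5F1A and ATP5F1B, the alpha and beta subunits, and ATP5F1C, the gamma shaft, were called higher at day 4 and ATP5F1E, the epsilon subunit, was called lower. ATP5F1C stood at 216, 224 and 209 in 1KI9 and 221, 228 and 202 in 1D5, against 155, 146 and 157 in FL. Its expansion values were 339, 351 and 340.5 in 1KI9 and 325, 346 and 318 in 1D5, against 262, 304 and 309.8 in FL, and no GATA1s library overlapped an FL library in either condition. The differences were 0.50 ± 0.054 (adjusted p = 1.53e-07) and 0.21 ± 0.054 (adjusted p = 0.00367). ATP5F1A, ATP5F1B and ATP5F1E differed at day 4 by 0.21 ± 0.048, 0.31 ± 0.046 and -0.22 ± 0.060, and ATP5F1D, the delta subunit, by 0.044 ± 0.077, which was not called. The first 2 of these turned to -0.13 and -0.032 with median-of-ratios scaling and ATP5F1E to 0.073 with equal totals.

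In the membrane part and the stalk, ATP5MD, also named DAPIT and linked to dimers of the enzyme, stood at 389, 406 and 362 in 1KI9 and 351, 419 and 384 in 1D5, against 276, 272 and 289 in FL at day 4. Every GATA1s library was above FL, by 0.46 ± 0.065 (adjusted p = 4.25e-06). Its expansion values were 606, 591 and 593 in 1KI9 and 562, 599 and 587 in 1D5, against 492, 531 and 623 in FL, with overlap. ATP5MPL, a small proteolipid subunit, stood at 319, 329 and 319 in 1KI9 and 351, 348 and 335 in 1D5, against 262, 280.2 and 305 in FL in expansion, with the GATA1s libraries above FL by 0.24 ± 0.056 (adjusted p = 0.00151). At day 4 ATP5MPL stood at 141, 151 and 134 in 1KI9 and 130.2, 149 and 126 in 1D5, against 124, 120.0 and 121 in FL, above FL in each GATA1s library and called in 1KI9 only (adjusted p = 0.00486; 1D5 0.0534). The stalk subunits ATP5PD and ATP5PF and the membrane subunit ATP5ME were called higher at day 4, by 0.37 ± 0.070, 0.30 ± 0.058 and 0.24 ± 0.067, and with median-of-ratios scaling these came to 0.033, -0.037 and -0.093. ATP5PO and ATP5MF were not called, with 0.035 ± 0.048 and -0.027 ± 0.065.

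ATP5PB, the b subunit of the stalk, stood at 268, 275 and 261 in 1KI9 and 249.6, 267 and 249 in 1D5, against 235, 245 and 244 in FL at day 4 and was called in 1KI9 only (adjusted p = 0.0093; 1D5 0.15). In expansion it stood at 469, 500.5 and 499 in 1KI9 and 508, 515 and 479.7 in 1D5, against 505, 530.4 and 539.5 in FL, with each 1KI9 library below FL and 1D5 overlapping it. ATP5MG stood at 140.0, 143 and 126 in 1KI9 and 133, 151 and 131 in 1D5, against 151, 144 and 160.0 in FL at day 4. Each 1KI9 library was below FL there, while 1D5 overlapped it, and with equal totals the mean difference was 0.15 in place of -0.14. In expansion ATP5MG stood at 223, 233 and 229 in 1KI9 and 239, 224 and 217 in 1D5, against 217, 206 and 229 in FL, with overlap.

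ATP5IF1, the inhibitor that stops ATP synthase from running backwards (ENSG00000130770, chr1:28236109-28246906, hg38), stood at 297, 292 and 278 in 1KI9 and 301, 329 and 305 in 1D5, against 365, 384 and 368 in FL at day 4. Each GATA1s library was below each FL library as deposited, with a difference of -0.31 ± 0.062 (adjusted p = 0.000167), -0.61 relative to the median gene, and of -0.019 with equal totals (adjusted p = 0.769). In expansion ATP5IF1 stood at 209, 216 and 215 in 1KI9 and 225, 269 and 209.9 in 1D5, against 206, 227 and 208 in FL, with overlap. The ratio of ATP5IF1 to ATP5F1B, the catalytic beta subunit, was 0.612, 0.588 and 0.588 in 1KI9 and 0.629, 0.660 and 0.653 in 1D5, against 0.942, 0.982 and 0.937 in FL within the day-4 libraries. In expansion it was 0.243, 0.230 and 0.224 in 1KI9 and 0.241, 0.286 and 0.233 in 1D5, against 0.237, 0.261 and 0.217 in FL. All 9 day-4 libraries were above all 9 expansion libraries in this ratio, and among the day-4 libraries FL was the highest group.

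**Figure D3:**
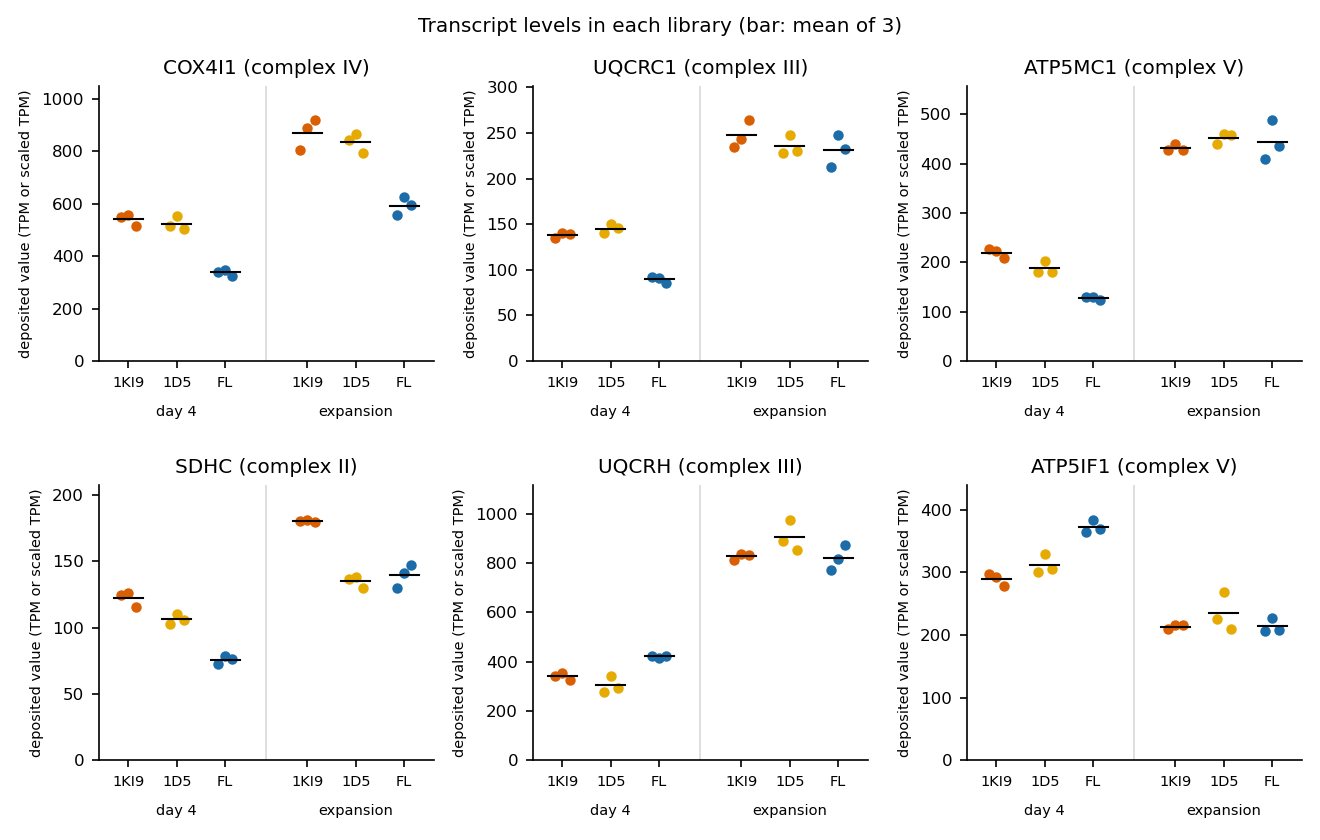
Deposited values (vertical axis, scaled TPM at day 4 and TPM in expansion, from 0) of 6 transcripts in each library (points) with the mean of 3 (bars) for 1KI9, 1D5 and FL. COX4I1 is higher in the GATA1s clones in both conditions, while UQCRC1, ATP5MC1, UQCRH and ATP5IF1 separate the clones from FL at day 4 but not in expansion.

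Expansion showed fewer differences. Only COX4I1, ATP5MPL, ATP5F1C and COX7A2 were called in both clones, all 4 higher and 0 lower, where 17.5% of the 11042 genes tested were called higher and 8.98% lower in limma. At an unadjusted p under 0.05 limma called 5 higher, with COX7C as the fifth, and 0 lower. The members' median difference was 0.053, against 0.064 over all genes, and 19 members lay above the median gene and 24 below. COX4I1 was the member called under all 4 scalings. With median-of-ratios scaling it was also the only one called, and without FL replicate 1 the count was 2. Without that library, which had a globin share of 10.6% against 5.55% and 5.73% in the other FL libraries, the differences of COX4I1, COX7A2, ATP5MPL and ATP5F1C were 0.48, 0.19, 0.19 and 0.13. The groups did not overlap for 11 members, 9 higher and 2 lower in all 6 GATA1s libraries. This was not counted over all genes either, so the 9 and 2 are not read as a trait of the members.

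The change of the GATA1s difference between conditions was tested as an interaction, the difference at day 4 minus that in expansion. Of the 43 members 27 were called as deposited, 19 with a positive and 8 with a negative value. On the same scale 45.4% of 11015 genes were called positive and 19.7% negative, shares near those of the members. The most positive were ATP5MC1 (0.67 ± 0.077, adjusted p = 8.22e-07), UQCRC1 (0.59 ± 0.074, adjusted p = 2.22e-06) and COX5A (0.50 ± 0.083, adjusted p = 4.33e-05). The most negative were UQCRHL (-0.51 ± 0.11), UQCRB (-0.50 ± 0.075, adjusted p = 1.54e-05) and UQCRH (-0.47 ± 0.086, adjusted p = 0.000122). With median-of-ratios scaling 4 were positive and 18 negative, with equal totals 32 and 3, and with equal totals without globins and mitochondrially encoded genes 18 and 11. Under all 4 scalings ATP5MC1, UQCRC1, COX5A and SDHC were called positive, and UQCRB, UQCRH and UQCRHL negative.

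As deposited, the 2 GATA1s clones differed from each other in few members, but the count moved with the scaling. The members' median of 1KI9 minus 1D5 in expansion was -0.015, against 0.11 over all genes tested. In expansion 1KI9 was higher than 1D5 in SDHC (0.42 ± 0.055, adjusted p = 9.90e-06) and lower in ATP5ME (-0.24 ± 0.077), UQCRQ (-0.22 ± 0.066) and COX7B (-0.18 ± 0.068), where 33.4% of genes were called higher and 7.16% lower as deposited. This count of 4 was 19 with median-of-ratios scaling (1 higher, 18 lower) and 11 with equal totals without globins and mitochondrially encoded genes (1 higher, 10 lower). Without 1D5 replicate 1 it was 2, without 1D5 replicate 2 it was 1, and without 1D5 replicate 3 it was 7. At day 4 1KI9 was higher than 1D5 in ATP5MC1 (0.22 ± 0.062), SDHC (0.20 ± 0.055) and SDHA (0.19 ± 0.057) and lower in COX7C (-0.18 ± 0.062), where 12.5% of genes were called higher and 6.69% lower as deposited. This count of 4 was 1, a lower call, with median-of-ratios scaling and 15, all higher, with equal totals. Without 1D5 replicates 1, 2 and 3 in turn it was 2, 7 and 0, and without 1KI9 replicates 1, 2 and 3 it was 1, 1 and 2. At an unadjusted p under 0.05 limma called 4 higher and 1 lower where the count was 0.

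**Figure D4:**
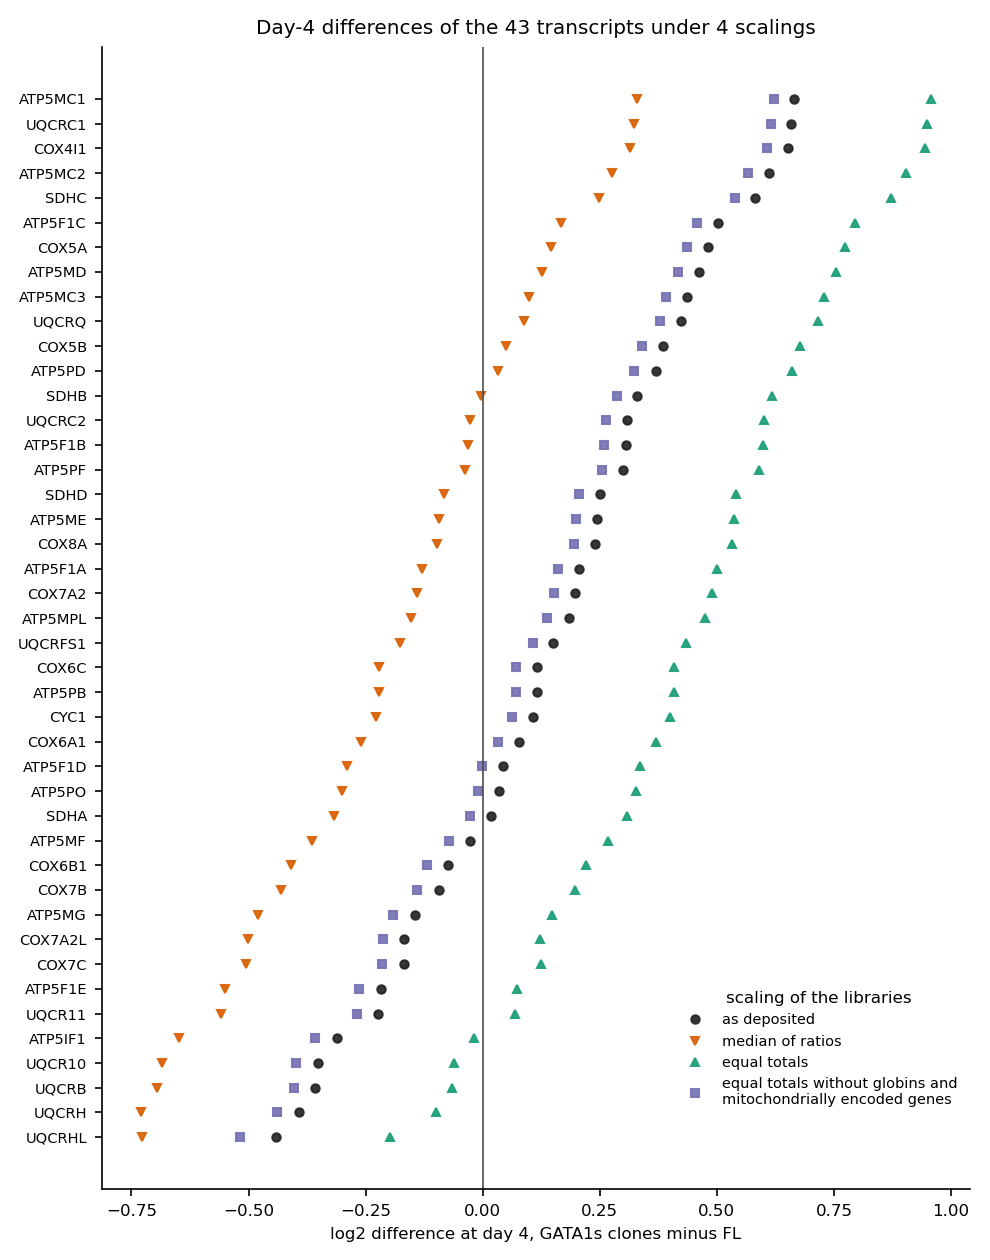
Log2 difference of the mean of 1KI9 and 1D5 minus FL at day 4 (horizontal axis) for the 43 transcripts (vertical axis, sorted) under 4 scalings of the libraries, shown by colour and shape. Each scaling multiplies a library by 1 factor, so the order must stay nearly the same. The whole set shifts with the scaling, by about the shift of the median gene, which is 0.29 as deposited, 0.0030 with median of ratios and 0.55 with equal totals.

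Levels of different genes are set side by side here because TPM is per transcript length. The divided reads and overlapping exons described above can shift such levels, and this was not tested. At day 4 COX4I1 was the highest member in 1KI9 and 1D5, where it averaged 539.7 ± 22.8 and 523 ± 27.4, while in FL it stood at 338 ± 12.3 and COX7C led with 538 ± 9.34 (SD, n = 3 each). COX7C averaged 510.3 ± 43.3 in 1D5, within the spread of COX4I1 there. In expansion ATP5F1B led in all 3 clones with 920.1 ± 55.3, 925 ± 20.6 and, in FL, 899 ± 51.2 TPM, within the spread of the next member in each. UQCRHL and UQCRFS1 were the lowest members in every group, and UQCRFS1 averaged 29.3 ± 1.12 and 28.0 ± 1.13, against 25.7 ± 0.734, at day 4. Summed over its members, complex II stood at 365 ± 8.76 and 330.2 ± 10.4, against 283 ± 2.82 scaled TPM at day 4, complex III at 1570 ± 42.4 and 1519.7 ± 107, against 1664 ± 19.3, complex IV at 3092 ± 140.1 and 3108 ± 244, against 2789 ± 19.5, and complex V at 4654 ± 148 and 4533 ± 305, against 3954 ± 38.9. GATA1s over FL these sums were 1.23, 0.928, 1.11 and 1.16 at day 4 and 1.03, 1.02, 1.11 and 1.03 in expansion, as deposited. The day-4 directions turned with the scaling: median of ratios gave 0.971, 0.735, 0.881 and 0.9197, and equal totals 1.51, 1.14, 1.36 and 1.42. In expansion median of ratios gave 0.978, 0.966, 1.05 and 0.978.

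The conditions were set side by side without a test, since their values were scaled separately. The 43 members made up 1.15% of all values in 1KI9 and 1.05% in 1D5, against 0.816% in FL at day 4, and 1.73% and 1.75%, against 1.65%, in expansion. The globin share given above enters these percentages. ATP5IF1 is the member whose place among the others differed most between conditions. Its log2 level relative to the median member of the same library was higher at day 4 than in expansion by 1.12 in 1KI9 and 1.19 in 1D5, against 1.82 in FL.

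Genes around the complexes were counted from lists of assembly factors, carriers and regulators, by the same rule as the members. Beside these counts stand the shares over all genes tested, 51.2% higher and 14.3% lower at day 4 with a median difference of 0.29, and 17.5% and 8.98% in expansion with a median of 0.064, and no list is set apart from them here. Of 6 complex III assembly factors 4 were called higher at day 4 and 0 lower, with a median difference of 0.62. TTC19, which clears fragments of the Rieske protein, averaged 33.6 ± 0.550 in 1KI9 and 36.6 ± 2.18 in 1D5, against 13.6 ± 0.420 in FL at day 4 (SD, n = 3 each). It was the largest rise of the list, 1.307 ± 0.057 (SE, adjusted p = 6.65e-13), and was called under all 4 scalings, as were UQCC1 and UQCC2. BCS1L, which inserts the Rieske protein, was called higher at day 4 (0.52 ± 0.067) and lower in expansion (-0.30 ± 0.067), as deposited. Of 4 complex II assembly factors 2 were called higher and 0 lower (median 0.27). Of 27 complex IV assembly factors 16 were called higher and 1 lower at day 4 (median 0.32), and 1 higher and 2 lower in expansion. SCO2, which serves copper delivery, COX18, which serves membrane insertion, COA7 and COA6 differed by 0.88 ± 0.079, 0.82 ± 0.062, 0.81 ± 0.074 and 0.68 ± 0.077 at day 4, each called under all 4 scalings. The gene called lower, PET100, named after its value was seen, differed by -0.33 ± 0.058 as deposited and by -0.043 with equal totals.

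Of 6 ATP synthase assembly factors 2 were called higher and 2 lower at day 4 (median 0.019). ATPAF2, the chaperone of the alpha subunit, averaged 22.8 ± 1.88 in 1KI9 and 20.8 ± 1.80 in 1D5, against 46.4 ± 3.41 in FL at day 4, a difference of -1.06 ± 0.071 (adjusted p = 2.35e-10) that was called lower under all 4 scalings. In expansion its difference was 0.11 ± 0.071 (adjusted p = 0.188). Of 4 accessory genes 2 were called higher and 1 lower at day 4 (median 0.076). CHCHD2 and HIGD2A were the higher ones as deposited, by 0.31 ± 0.063 and 0.24 ± 0.059, with -0.031 and -0.095 under median-of-ratios scaling. HIGD1A, a hypoxia-linked partner of the chain, averaged 115 ± 4.503 and 102 ± 3.02, against 196 ± 6.24 in FL at day 4, and was called lower under all 4 scalings (-0.85 ± 0.055, adjusted p = 1.26e-10).

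Among 15 genes of cytochrome c and ubiquinone 7 were called higher and 0 lower at day 4 (median 0.32), led by COQ2, which attaches the isoprenoid tail of ubiquinone (1.10 ± 0.062), and 1 was called higher and 3 lower in expansion. Of 11 regulators 7 were called higher and 1 lower at day 4 (median 0.42), led by POLRMT, the mitochondrial RNA polymerase (1.04 ± 0.080). In expansion 0 regulators were called higher, also at an unadjusted p under 0.05 in limma, and 3 lower, namely GABPB1 (-0.46 ± 0.065), PPRC1 (-0.45 ± 0.078) and NRF1 (-0.32 ± 0.069). The 6 mitochondrially encoded partners in complexes III to V were all called higher at day 4 as deposited (median 0.67), and 2 of them, MT-CO2 and MT-CYB, in expansion. Of 37 complex I subunits 25 were called higher and 0 lower at day 4 (median 0.26). Where these counts are 0 at day 4, limma also called 0 at an unadjusted p under 0.05.

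The list counts moved with the scaling as the members' did. Shares over all genes were not set beside the counts under other scalings. With median-of-ratios scaling 3 complex III assembly factors were called higher and 2 lower, 7 complex IV assembly factors higher and 6 lower, 5 carriers higher and 3 lower, 4 regulators higher and 4 lower, and 2 complex I subunits higher and 8 lower. With that scaling 1 complex II assembly factor was called higher and 0 lower, 3 of the mitochondrially encoded partners higher and 0 lower, and 0 ATP synthase assembly factors higher and 2 lower.

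RefSeq promoter windows were found for 34 of the 43 members. The ETS core was present in 21 of these windows (61.8%), against 17.6% of 27305 windows taken once per gene and 32.3% of the 8767 windows of genes in the fit. The NRF1 core was present in 9 (26.5%), against 8.42% and 14.6%, and the GATA site in 3 (8.82%), against 10.5% and 4.71%. The GATA sites lie in the windows of UQCR10, UQCRH and COX7A2, 2 of which were called lower and 1 higher at day 4 as deposited.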

How the data were processed

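RNA-seq of HUDEP1 clones gave 18 libraries in 6 groups of 3. Per the submitters' processing notes, Trim Galore 0.60, STAR 2.7, RSEM 1.31 and the hg38 build were used, with no order or settings stated. The authors deposited 1 table: expansion values are TPM, and day-4 values are a signal that does not sum to the TPM total, deposited after a further scaling whose method the sources used here do not give. Read depth cannot be recovered from either, and the design had assumed 1 unit. Genes at 1 or more in at least 3 libraries were kept, and log2(value + 1) was fitted in limma 3.58.1 (R 4.3.3) to all 6 groups with a variance trend and Benjamini-Hochberg adjustment over all genes. A gene listed at 0 in every library of a condition was not tested there. The code was tested on simulated data. The alternatives were 3 other scalings, a pseudocount of 0.1, no filter, no trend, each condition alone, the replicate number as a block, and leaving out each library. Members named with every library are, per condition, the 8 with the largest difference among those called, the succinate dehydrogenase genes, common partners of tissue isoforms, ATP5IF1, COX7A2L, and members with an interaction call and opposite signs. From each pathway list at most 4 called genes with the largest differences are named. The members and lists were chosen with earlier results of these data known, and the complex I list after the data were seen. Gene positions follow GENCODE in hg38, matched by gene identifier.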

Additional observations from a re-analysis of the deposited data

Results flagged for a closer look

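The difference between GATA1s and FL changed between conditions for 27 of the 43 transcripts, tested as an interaction in limma (day-4 difference minus expansion difference, log2 scale, Benjamini-Hochberg adjusted p under 0.05), 19 positive and 8 negative. Over all genes tested 45.4% were called positive and 19.7% negative, so this count is near the background. Under all 4 scalings 4 members were called positive (ATP5MC1, UQCRC1, COX5A and SDHC) and 3 negative (UQCRB, UQCRH and UQCRHL). In complex III the values were -0.51 for UQCRHL, -0.50 for UQCRB, -0.47 for UQCRH and -0.24 for UQCR10, and 0.27 for UQCRC2, 0.28 for UQCRFS1, 0.29 for CYC1, 0.44 for UQCRQ and 0.59 for UQCRC1. In complex II they were 0.20 for SDHD, 0.41 for SDHB and 0.42 for SDHC. In complex IV they were -0.34 for COX7C, -0.26 for COX7A2L, 0.28 for COX5B and 0.50 for COX5A. In ATP synthase they were -0.37 for the inhibitor ATP5IF1, -0.21 for ATP5MG, 0.18 for ATP5F1A, 0.20 for ATP5PB, 0.27 for ATP5F1B, 0.29 for ATP5F1C, 0.30 for ATP5PD, 0.35 for ATP5MD, 0.42 for ATP5MC3, 0.49 for ATP5MC2 and 0.67 for ATP5MC1. Each compares 6 GATA1s with 3 FL libraries in each condition. The values for all genes are shifted as well, with an interaction median of 0.21, and the part of the separate scaling of the conditions was not tested beyond the scalings given.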

How the results depend on the processing

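Scaling moved the counts most, and the shares over all genes are given for the deposited scale only. With median-of-ratios scaling 1 member was called in both clones in expansion, 19 between clones in expansion and 1 between clones at day 4. Equal totals gave 15 between clones at day 4, and equal totals without globins and mitochondrially encoded genes gave 11 between clones in expansion. The cause was not tested. Among the 32 named differences, the day-4 mean changed sign with equal totals for ATP5MG (0.15), COX7A2L (0.12) and COX7C (0.12), and with median-of-ratios scaling for ATP5MPL (-0.15), ATP5PB (-0.22), COX7A2 (-0.14), COX8A (-0.097), SDHB (-0.0032), SDHD (-0.083) and UQCRFS1 (-0.18). Called members outside that set also changed sign, ATP5F1E (0.073) and UQCR11 (0.069) with equal totals, and ATP5F1A (-0.13), ATP5F1B (-0.032), ATP5ME (-0.093), ATP5PF (-0.037) and UQCRC2 (-0.027) with median-of-ratios scaling. Of the 32 named differences, median-of-ratios scaling kept 18 in direction and side of the threshold and 7 in direction only, and equal totals kept 25 and 4. Each of the other planned settings that kept all libraries kept 31 or 32, and leaving out 1 library in turn changed no sign. With 1 library left out in turn, 2 to 6 members were called in both clones in expansion (2 without FL replicate 1), 24 to 28 at day 4, 24 to 30 for the interaction, 1 to 7 between clones in expansion and 0 to 7 between clones at day 4. Between clones in expansion the count was 2, 1 and 7 without 1D5 replicates 1, 2 and 3. At day 4 it was 2, 7 and 0 without those of 1D5, with 4 higher and 1 lower at an unadjusted p under 0.05 in limma for the 0, and 1, 1 and 2 without 1KI9 replicates 1, 2 and 3. Whether replicate numbers pair the libraries was not settled by the values. Same-numbered deviations correlated at -0.1518 to 0.4294 over 18 pairs, 6 of them over 0.1. Of 18 libraries 11 were closest to their own number. With a replicate block the counts were 4 and 29 in both clones in expansion and at day 4, 28 for the interaction, and 5 and 3 between clones. Depth is unknown, so precision at low values rests on the spread between libraries.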
